A study of Homo sapiens with 56 samples.

Results

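ATP-binding cassette (ABC) transporters form a large gene family, and 43 of its members named ABCA to ABCG are described here in 28 ovarian cancer cell lines. The members were chosen by gene symbol and not by a rule on measured values, but with earlier results of these data known. A gene was represented by the probe set annotated to it alone, or by the probe set with the highest mean where several were, and 42 of the 43 genes were measured in this way, out of 18377 genes on the array. ABCC6 was not analysed here. Of the 42 measured members, 29 passed a filter on low values and 13 lay below it. All 42 were kept, and values in the lowest range may be background because no detection call came with the data.

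Each line was hybridised on 2 Affymetrix Human Gene 1.0 ST arrays, 56 arrays in all. This array reads labelled RNA with short probes placed along each transcript. The lines were untreated as far as the labels say, and they differed in culture medium. DMEM was the base medium of 10 lines, namely CAOV3, CH1, DOV13, OAW28, OAW42, OVCA420, OVCA432, OVCA433, SKOV3 and TYKNU. RPMI was used for 9 lines, namely A2780, COLO720E, EFO21, HEY, HEYC2, OVCAR2, OVCAR3, OVCAR5 and PEO1. DMEM/F12 was used for 7 lines, namely FUOV1, JHOS2, JHOS3, JHOS4, OV17R, OV56 and OV7. UWB1.289 grew in a mixture of RPMI and MEGM with 3% fetal bovine serum, and TOV112D in a mixture of MCDB105 and M199. Serum was at 10% for most lines, at 20% for EFO21 and OVCAR3 and at 5% for OV17R, OV56 and OV7, and these last lines also received insulin at 10 µg/ml and hydrocortisone at 0.4 or 0.5 µg/ml. Insulin was also added at 10 µg/ml for OVCAR2, OVCAR3 and OVCAR5, and at 0.7 µg/ml for OAW28 and OAW42. HEYC2 is a derivative of HEY, and each line stands for 1 tumour or clone and not for a tumour type.

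ABC proteins use the energy of ATP to move a substrate across a membrane, or, in the ABCE and ABCF branches, to act on the ribosome without any membrane part. In cancer cells the family is best known for multidrug efflux, in which ABCB1 (P-glycoprotein), ABCG2 (breast cancer resistance protein) and several ABCC proteins pump chemotherapeutic drugs out of the cell. Other branches move cholesterol and phospholipids, bile constituents, haem precursors, or very long chain fatty acids into peroxisomes.

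Before any comparison, 3 arrays stood apart from the rest, namely OVCA420 replicate 1, HEYC2 replicate 1 and OV56 replicate 2. The standard deviation of their values over genes was 1.57 to 1.68, against 1.91 to 2.09 on the other arrays. The 2 arrays of these lines differed in the members by a median of 0.89, 0.68 and 0.63 log2 units, in that order, against 0.08 to 0.23 in the other lines. Results that rest on these lines are given with and without the 3 arrays, and without them 35 members were called and 16 were wide. Each of these lines then rests on 1 array, so its difference from the other lines is given as a size only. The labelled cell type was checked with 8 ovarian carcinoma and epithelial markers, whose mean was lowest in COLO720E (7.38) and highest in PEO1 (11.21), while PAX8 was lowest in CAOV3 at 6.29 and EPCAM in HEYC2 at 4.57. Of the 5 leukocyte markers, PTPRC stayed at or below 3.93 in all lines, CD3E at or below 5.42 and MS4A1 at or below 4.55, while CD68 reached 10.73 in TYKNU (median 7.93) and CD14 7.90 in CAOV3 (median 5.91). Of the 4 endothelial markers, PECAM1 was 9.79 in TYKNU and 9.51 in EFO21, and CDH5 was 9.28 and 8.85 there. The other genes of this list did not follow. VWF stayed at or below 5.71 in all lines, and CLDN5 was highest in OVCA420 at 7.50.

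The promoters of 2 gene pairs with correlated levels are shown first, chosen after their values were seen. ABCB8 and ABCF2 are neighbours on chromosome 7 and had the highest correlation of all member pairs. ABCB1 and ABCC2 lie on different chromosomes and had the highest correlation between drug efflux pumps. The sequences are the 250 bases just upstream of the annotated start, from RefSeq on build GRCh38.p14 and written 5′ to 3′ on the strand of the gene. Capitals mark matches on either strand to 4 motifs, namely the CCAAT box (CCAAT), the GC box (GGGCGG), the core of the antioxidant response element (TGACNNNGC) and the AP-1 site (TGANTCA). The regions are chr7:151028200-151028449 on the plus strand for ABCB8, chr7:151227206-151227455 on the minus strand for ABCF2, chr7:87600885-87601134 on the minus strand for ABCB1, and chr10:99782390-99782639 on the plus strand for ABCC2. Of the 2 starts listed for ABCB1, the one nearest the 3′ end of the gene was taken.
ABCB8: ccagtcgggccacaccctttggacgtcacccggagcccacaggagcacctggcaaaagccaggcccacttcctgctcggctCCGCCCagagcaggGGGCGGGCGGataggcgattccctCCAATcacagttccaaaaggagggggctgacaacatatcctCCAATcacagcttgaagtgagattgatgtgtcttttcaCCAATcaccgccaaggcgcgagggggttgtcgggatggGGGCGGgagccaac
ABCF2: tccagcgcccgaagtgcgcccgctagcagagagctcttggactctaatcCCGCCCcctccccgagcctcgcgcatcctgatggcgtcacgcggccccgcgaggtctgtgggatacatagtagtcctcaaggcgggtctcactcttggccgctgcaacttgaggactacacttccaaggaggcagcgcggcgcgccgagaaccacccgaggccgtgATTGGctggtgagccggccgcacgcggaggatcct
ABCB1: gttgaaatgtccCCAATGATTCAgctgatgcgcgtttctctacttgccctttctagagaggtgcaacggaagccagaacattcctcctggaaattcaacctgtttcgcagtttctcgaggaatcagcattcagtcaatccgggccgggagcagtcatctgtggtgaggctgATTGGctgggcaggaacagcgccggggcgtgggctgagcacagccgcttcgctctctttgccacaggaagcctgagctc
ABCC2: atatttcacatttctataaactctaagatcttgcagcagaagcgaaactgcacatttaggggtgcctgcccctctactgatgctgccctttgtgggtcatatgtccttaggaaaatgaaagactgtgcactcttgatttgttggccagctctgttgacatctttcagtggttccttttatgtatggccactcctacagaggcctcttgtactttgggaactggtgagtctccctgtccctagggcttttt

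The ABCB8 promoter held 3 CCAAT boxes and 4 GC boxes, of which 2 overlap, and the ABCF2 promoter held 1 of each, read on the opposite strand. The ABCB1 promoter held 2 CCAAT boxes, of which 1 overlaps an AP-1 match, and the ABCC2 promoter held none of the 4 motifs. Promoter entries existed for 34 of the measured members, with 51 promoters. CCAAT was found in 11 of these (21.6%), against 32% of 35116 promoters of all genes. The GC box was found in 25 (49%, against 42.6%), the antioxidant response element core in 9 (17.6%, against 10.9%) and the AP-1 site in 5 (9.8%, against 6.57%). These matches describe letters in a window and not binding.

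The lines differed in most ABC transporter genes. A moderated F test in limma asked whether all 28 line means were equal, with Benjamini-Hochberg adjustment over all 18377 genes, and 32 of 42 members (76.2%) passed at adjusted p under 0.05, against 65.7% of all genes. Of these, 18 (42.9%) also had line means that spanned at least 2 log2 units, a 4-fold range, against 36.1% of all genes. The median range of the line means was 1.92 log2 units for members and 1.72 for all genes, while the 2 arrays of a line differed by a median of 0.14 for members and 0.15 for all genes. Members thus had a share of changed genes not far from the background of the array, and the groups within the family differed more.

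The 9 drug efflux pumps were the widest of the larger groups, with 8 called, 7 of them wide, and a median range of 3.27 log2 units. Of the 16 sterol and phospholipid transporters, 13 were called and 6 were wide, with a median range of 1.60. All 5 mitochondrial and lysosomal half-transporters were called and 1 was wide. Both peroxisomal half-transporters were called and wide, and of the 4 translation factors 3 were called and 2 were wide. Without the arrays apart 1 gene in each of these 2 groups was wide. The call of peroxisomal ABCD3 was close to the threshold (adjusted p = 0.0483) and was lost when any of 51 of the 56 arrays was left out (adjusted p up to 0.0885), while without the 3 arrays together it held (adjusted p = 6.31e-17) with a range of 1.64. The bile canaliculus pair had 1 call, and the sulfonylurea receptors and the remaining ABCB and ABCC genes had no call among 4 genes, with adjusted p from 0.0616 to 0.442.

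**Figure D1:**
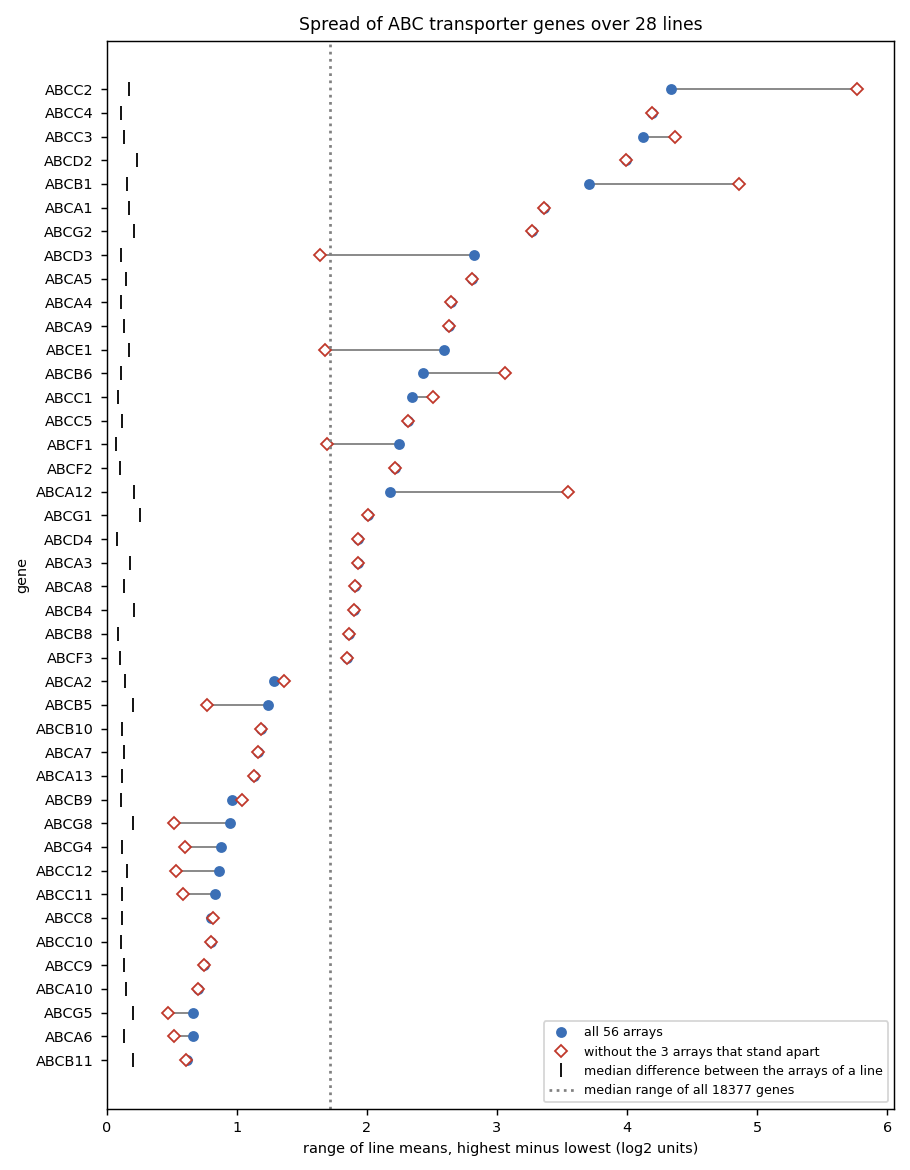
Range of the line means (highest minus lowest, log2 units, x axis) for each of the 42 measured genes (y axis), with all 56 arrays (filled circles) and without the 3 arrays that stand apart (open diamonds); black ticks give the median difference between the arrays of a line and the dotted line the median range of all 18377 genes. ABCC2, ABCC4, ABCC3, ABCD2 and ABCB1 span the widest ranges, and ABCD3, ABCE1 and ABCF1 shrink below 2 log2 units without the 3 arrays.

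ABCB1, the P-glycoprotein pump of taxanes, anthracyclines and vinca alkaloids, was high in 6 lines and low in the rest. Its line means ran from 4.39 log2 in UWB1.289 over a median of 4.88 to 8.10 in OAW42. The 6 high lines were OAW42 (arrays 8.14 and 8.05), DOV13 (8.20 and 7.82), OVCA420 (6.28 and 9.25), OVCAR2 (7.54 and 7.40), OV56 (8.37 and 6.30) and OV17R (7.02 and 6.76). The next line, CAOV3, had a mean of 6.10, and no array of a lower line reached the lowest array of the 6 lines. OAW42 exceeded the mean of the other 27 lines by 2.71 ± 0.35 log2 units (SE; 6.54-fold, limma adjusted p = 3.49e-07), and DOV13 by 2.62 ± 0.35 (6.15-fold, adjusted p = 7.75e-07). These highest lines differed from each other by less than the 2 arrays of DOV13 did. The values of OVCA420 and OV56 depend on arrays that stand apart. Without those arrays OVCA420 stood highest with 9.25 in its remaining array, 3.81 above the other lines. OV56 then stood 2.90 above, and both lines rested on 1 array each.

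ABCG2, a half-transporter that exports topotecan, mitoxantrone and urate, had a pattern of its own. Its line means ran from 3.96 in OVCAR3 over a median of 4.94 to 7.23 in OVCAR2. OVCAR2 (arrays 7.17 and 7.29), OV7 (7.02 and 7.25) and CH1 (6.96 and 7.15) formed a top group whose arrays overlap, followed by HEY at 6.44 and OVCAR5 at 6.28. OVCAR2 lay 2.06 ± 0.14 log2 units above the other lines (4.18-fold, adjusted p = 2.51e-13), OV7 1.97 ± 0.14 (adjusted p = 9.27e-13) and CH1 1.89 ± 0.14 (adjusted p = 2.78e-12). OVCAR2 was thus the only line called high for both ABCB1 and ABCG2. At the low end, the difference of OVCAR3 from the other lines was -1.33 ± 0.14 (adjusted p = 6.69e-09).

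ABCC2 (MRP2), an exporter of glutathione and glucuronide conjugates and of cisplatin conjugates, was high in 2 lines. OVCAR2 arrays read 8.29 and 8.30, and OVCA420 arrays 7.23 and 10.09, while the third line, TYKNU, had a mean of 5.87, the median line 5.24 and the lowest, OVCA432, 4.33. The lowest array of these lines, 7.23, belonged to an array that stands apart. OVCA420 exceeded the other lines by 3.33 ± 0.30 (10.07-fold, adjusted p = 3.26e-10), and by 4.77 in its 1 remaining array without the arrays that stand apart. The excess of OVCAR2 was 2.95 ± 0.30 (7.74-fold, adjusted p = 2.39e-09).

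ABCC3 (MRP3), a conjugate exporter of basolateral membranes, was highest in OVCA420 (9.06 and 9.57), CAOV3 (8.68 and 8.69) and OV7 (8.41 and 8.86), and lowest in OVCA432 at 5.20, with a median of 6.37. OVCA420 lay 2.87 ± 0.16 above the other lines (7.33-fold, adjusted p = 2.68e-15), and 3.16 above in its 1 remaining array without the arrays apart. CAOV3 lay 2.22 ± 0.16 above (adjusted p = 8.61e-13) and OV7 2.17 ± 0.16 (adjusted p = 1.31e-12). DOV13 followed at 7.99, with arrays of 8.03 and 7.95. Unlike ABCC2, the level in OVCAR2 was close to the median.

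ABCC4 (MRP4), an exporter of cyclic nucleotides and nucleoside analogues, was highest in OVCAR2 (9.72 and 9.87) and DOV13 (9.57 and 9.47) and lowest in CAOV3 (5.49 and 5.72), with a median of 7.77. The CAOV3 difference of -2.28 ± 0.41 from the other lines (adjusted p = 6.11e-05) was the only member and line pair called at least 2 log2 units lower. OVCAR2 lay 2.06 ± 0.41 above (adjusted p = 0.000244), and 1.93 ± 0.09 above without the arrays apart. CAOV3 was thus among the highest lines for ABCC3 and the lowest line for ABCC4.

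ABCC1 (MRP1), an exporter of glutathione conjugates and anthracyclines, varied less. It ran from 7.26 in JHOS3 to 9.61 in EFO21, with a median of 8.24, and EFO21 stood 1.37 ± 0.15 above the other lines (adjusted p = 2.54e-08). Without the arrays apart OVCA420 was the highest line for ABCC1, at 9.76 in its remaining array. It then stood 1.51 above the other lines, and EFO21 stood 1.36 above. ABCC5 (MRP5), which carries cyclic nucleotides, ran from 6.44 in OVCAR3 to 8.76 in OAW42, which stood 1.45 ± 0.17 above (adjusted p = 4.59e-08). ABCC10 (MRP7) spanned only 0.80 log2 units (adjusted p = 0.00882), and ABCC11 (MRP8), with a range of 0.83, missed the threshold (adjusted p = 0.155), with a median of 5.12 near the low end of the scale.

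**Figure D2:**
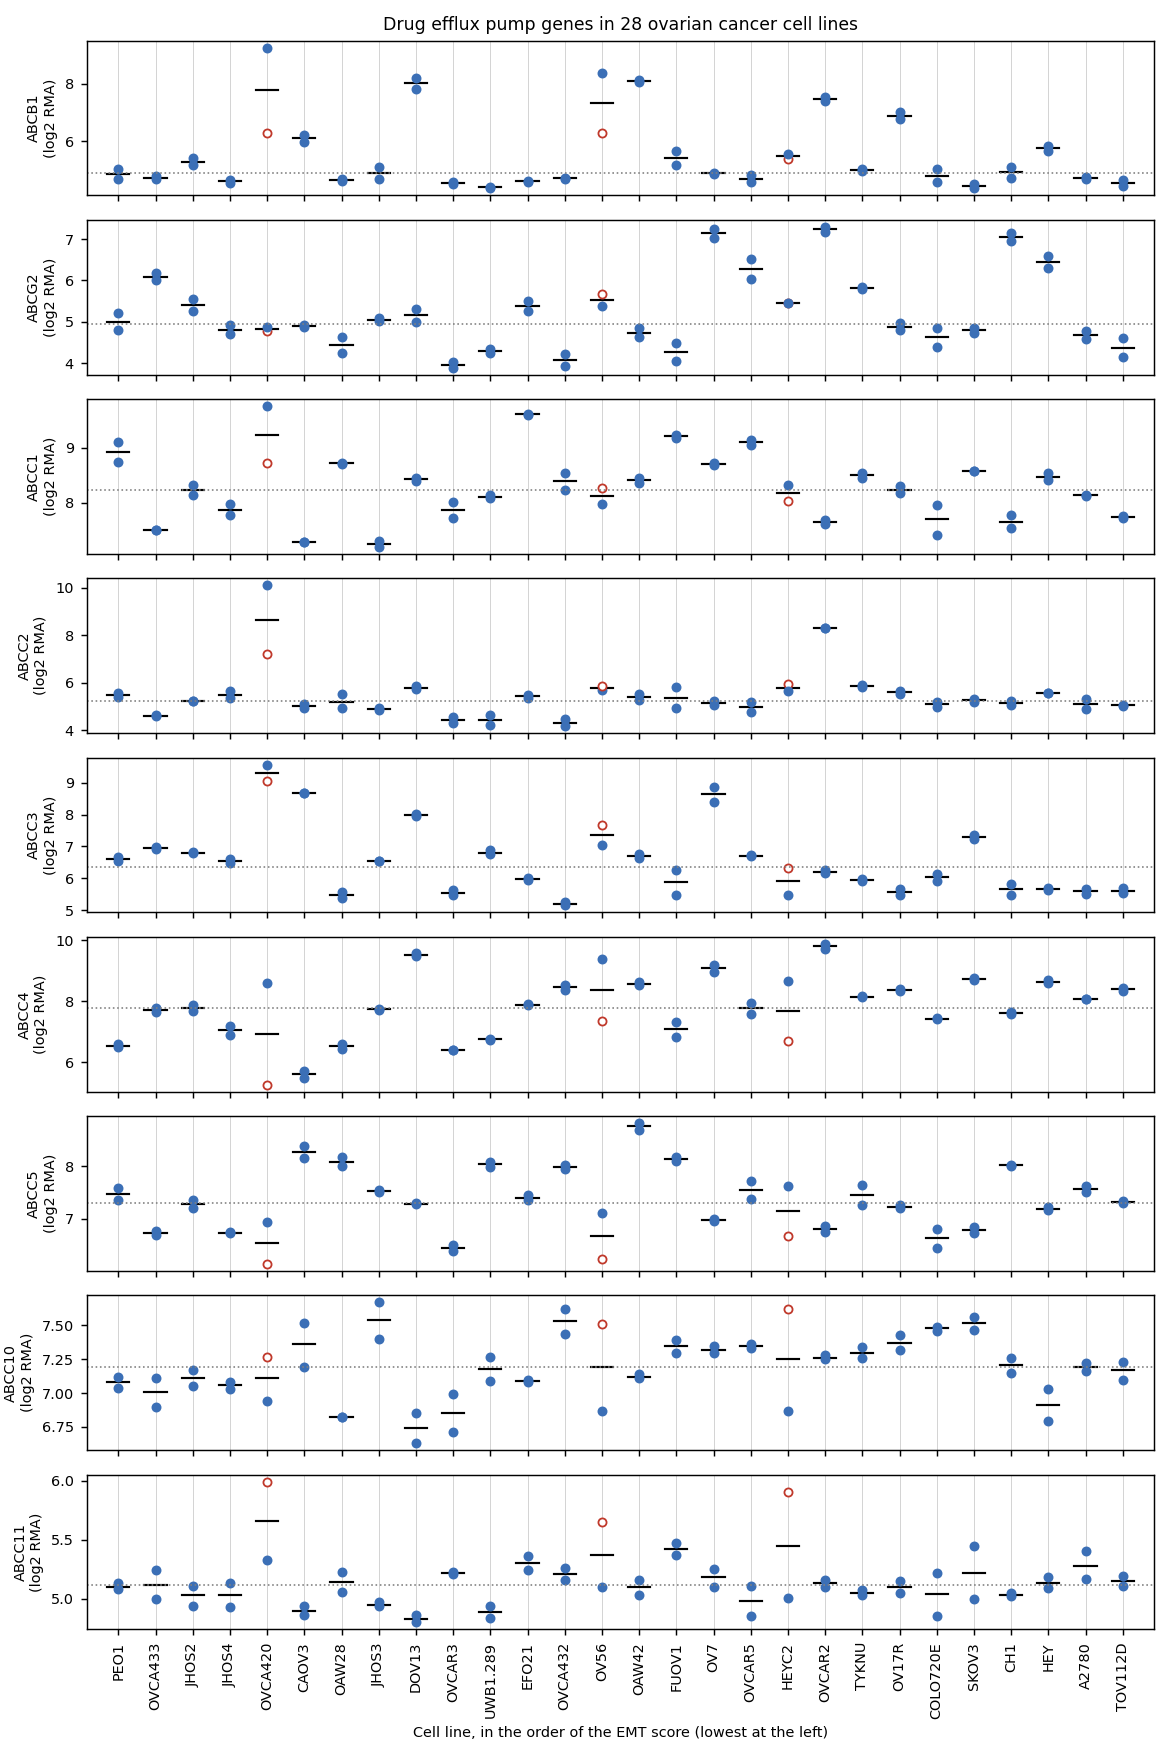
Log2 RMA level (y axis, own scale per gene) of the 9 drug efflux pumps in 28 lines ordered by EMT score (x axis); points are arrays, black bars line means, dotted lines the gene's median line mean, and open red circles the 3 arrays that stand apart. ABCB1 is high in 6 lines, ABCC2 in OVCA420 and OVCAR2, and ABCC11 stays near 5 in most arrays.

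Among the transporters of sterols and phospholipids, ABCA1, which loads cholesterol and phospholipid onto apolipoprotein A-I, had the widest range with all arrays; without the arrays apart ABCA12 had a range of 3.55 against 3.36 for ABCA1. It ran from 4.87 in CAOV3 (arrays 4.94 and 4.81) to 8.23 in DOV13 (8.28 and 8.18), with a median of 6.42. DOV13 lay 1.85 ± 0.19 above the other lines (3.61-fold, adjusted p = 3.12e-09) and the difference of CAOV3 was -1.63 ± 0.19 (adjusted p = 2.79e-08). ABCG1, which moves cholesterol to high-density lipoprotein, was highest in COLO720E at 7.06, 1.59 ± 0.19 above the other lines (adjusted p = 3.85e-08), against a median of 5.39. These 2 cholesterol exporters did not peak in the same lines.

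COLO720E was also the highest line for ABCA5, a lysosomal lipid transporter, and for ABCA4, the retinoid transporter of photoreceptors. ABCA5 read 7.55 and 7.49 there, 1.71 ± 0.28 above the other lines (adjusted p = 1.15e-05), and ABCA4 6.79 and 6.98, 1.75 ± 0.18 above (adjusted p = 2.47e-09). ABCA3, which packs lung surfactant, was highest there as well at 7.41. In OVCA420 the ABCA5 arrays read 4.77 and 7.43. The OVCA420 difference of 0.24 from the other lines became 1.56 without the arrays apart.

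ABCA9 was near the bottom of the scale in all lines but OV17R. OV17R arrays read 6.07 and 6.02, against 4.30 in the next line, OVCA420, and a median of 3.76, a difference of 2.28 ± 0.18 (4.87-fold, adjusted p = 1.45e-11). ABCA8, its chromosomal neighbour on 17q, was highest in OV17R too, at 5.07. Both genes lay below the filter on low values, also with OV17R counted. ABCA12, the keratinocyte lipid transporter, was low in most lines (median 4.29) and high in OVCA420 (4.86 and 7.60) and OV56 (6.80 and 4.96). For both lines the higher array is the one that does not stand apart. With all arrays the differences from the other lines were 1.85 ± 0.33 in OVCA420 and 1.48 ± 0.33 in OV56. Without the arrays apart they were 3.20 and 2.37, each resting on 1 array.

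The remaining sterol and phospholipid members with a call were narrower. ABCA2, ABCA3, ABCA6, ABCA7, ABCA8, ABCA10 and ABCA13 had ranges from 0.66 to 1.93 log2 units. ABCG4, ABCG5 and ABCG8 did not pass (adjusted p from 0.148 to 0.456), and their highest line was OVCA420 in each case, which holds one of the arrays apart. Without the arrays apart ABCG4 passed (adjusted p = 0.0217, range 0.60), and ABCG5 (0.879) and ABCG8 (0.357) did not.

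The bile pair differed in their calls. ABCB4, the phosphatidylcholine floppase, was highest in OVCAR2 (5.44 and 5.87), 1.61 ± 0.15 above the other lines (adjusted p = 3.86e-10), with a median of 3.97. This gene lay below the filter on low values. ABCB11, the bile salt export pump, ran from 3.55 to 4.17 with no call (adjusted p = 0.209).

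Among the half-transporters of mitochondria and lysosomes, ABCB6, a porphyrin transporter, was highest in COLO720E at 8.38 and ranged over 2.43 log2 units. Its range was 3.06 without the arrays apart, where HEYC2 was lowest at 5.32 in its remaining array. The ABCB6 difference of HEYC2 from the other lines was then -1.58, against -0.94 with all arrays. ABCB8 ran from 6.37 in OVCA432 to 8.23 in OVCA433, ABCD4, a cobalamin transporter of lysosomes, from 6.62 in JHOS4 to 8.55 in OAW28, and ABCB9 and ABCB10 had ranges of 0.96 and 1.19. ABCB8 had 3 probe sets, and the others correlated only at 0.367 and 0.513 with the one used.

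ABCD2, the peroxisomal importer of very long chain fatty acids, was high in TOV112D (7.73 and 7.61), and no array of another line reached these values. The next lines were OVCAR2 at 6.37 and OV7 at 5.71, and the median was 4.32. TOV112D exceeded the other lines by 3.29 ± 0.27 (9.77-fold, adjusted p = 2.97e-11). ABCD3, the abundant peroxisomal half-transporter, read 8.34 in HEYC2 and 8.99 in OVCA420, below the median of 10.24. The first of these values came from arrays of 7.16 and 9.52 and the second from 7.04 and 10.94. Without the arrays apart the differences of -1.93 and -1.25 became -0.85 and 0.63, each under 1 log2 unit in size and resting on 1 array.

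The ABCE and ABCF proteins recycle ribosomes or act in translation. ABCF2 was lowest in JHOS2 (7.41) and OVCA432 (7.53) and highest in TYKNU (9.63), 1.06 ± 0.18 above the other lines (adjusted p = 4.3e-05). ABCE1, which splits ribosomes after termination, did not pass with all arrays (adjusted p = 0.494, OVCA420 arrays 5.80 and 10.29) and passed without the arrays apart (adjusted p = 1.74e-13, range 1.68). ABCF1 lay at 8.22 in OVCA420, with a difference of -1.35 that became -0.42 without them. ABCF3 ran from 7.76 in COLO720E to 9.61 in CAOV3.

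The sulfonylurea receptors ABCC8 and ABCC9, the regulatory subunits of ATP-sensitive potassium channels, had no call with all arrays, with adjusted p of 0.215 and 0.0616, and neither had ABCB5 (0.133) or ABCC12 (0.442). Without the arrays apart ABCC8 passed (adjusted p = 0.00269, range 0.82) and the other genes did not (0.0512, 0.0518 and 0.326). Their line means stayed within 1.24 log2 units.

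**Figure D3:**
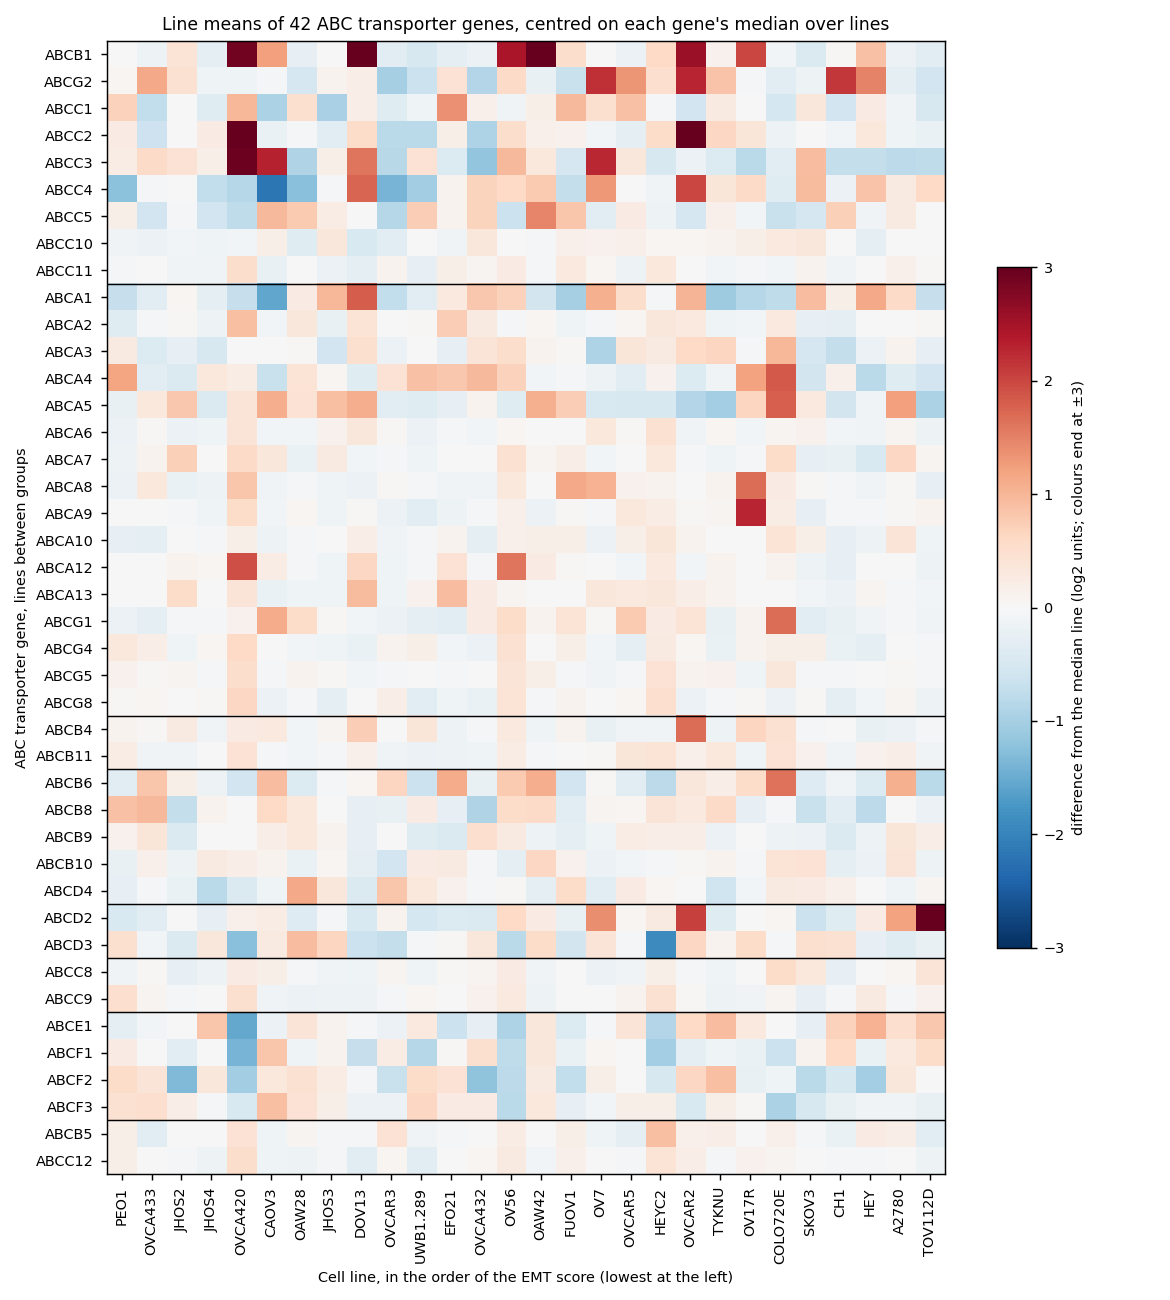
Line means of the 42 measured genes (rows, black lines between the gene groups) in 28 lines ordered by EMT score (columns), as the difference from the gene's median line in log2 units, with colours ending at 3 in either direction. The strongest reds are pumps in OVCA420, DOV13, OAW42 and OVCAR2, and ABCD2 in TOV112D, and OVCA420 is also low for ABCE1 and ABCF1.

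Counted over all members and lines (1176 pairs), 49 pairs were called at least 1 log2 unit above the other lines (4.17%, against 3.78% of all gene and line pairs) and 30 at least 1 log2 unit below (2.55%, against 3.56%). At 2 log2 units or more, 13 were higher and 1 was lower, where 0.825% and 0.549% of all pairs were. Of the 13, 11 belonged to drug efflux pumps. For the 252 pairs of the drug efflux pumps 22 were higher (8.73%) and 18 lower (7.14%), and for the 448 pairs of the sterol and phospholipid group 18 (4.02%) and 6 (1.34%). Comparisons of different lines share the other lines as reference and are not independent.

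With all arrays OVCAR2 had the most members called higher, 7 of 42, against 3.95% of all genes. They were ABCB1, ABCG2, ABCC2, ABCC4, ABCA1, ABCB4 and ABCD2, and the first 4 were at least 2 log2 units higher. Without the arrays apart OVCAR2 had 6, of which 3 were at least 2 log2 units higher, namely ABCG2 (2.07), ABCC2 (2.91) and ABCD2 (2.01). There ABCB1 (1.96) and ABCC4 (1.93) fell just below 2 log2 units, and ABCA1 (0.99) was no longer called. COLO720E had 5 (4.7% of all genes), namely ABCA3, ABCA4, ABCA5, ABCG1 and ABCB6, and OV7 had 5 (4.41%), namely ABCG2, ABCC3, ABCC4, ABCA1 and ABCD2. OVCA432 had 4 called lower (3.01%), namely ABCG2, ABCC2, ABCC3 and ABCF2, and OVCAR3 had 4 (3.14%), namely ABCG2, ABCC2, ABCC3 and ABCC4. OVCA420 had 4 called higher with all arrays and 6 without the arrays apart, as many as OVCAR2, when 5.45% of all genes were, and 4 of these 6 were at least 2 log2 units higher.

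Markers of other cell types move with some of these lines. In OVCAR2 the hepatocyte list (ALB, APOA2, TTR, SERPINA1, CYP3A4) had its highest mean, 5.55 against a median of 4.77, of which APOA2 was 9.74, while ALB stayed at or below 3.89 in all lines and CYP3A4 was lowest in OVCAR2 at 2.66. The list of 5 fibroblast genes had its highest mean, 8.08, in OV7, with LUM at 10.02. In OVCAR2 LUM was 10.37, its highest value, while COL1A2 was 5.81, its second lowest. Their part in the transporter results was not tested.

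The base medium gave no called member. Over the 26 lines grown in DMEM, RPMI or DMEM/F12, 0 of 42 members passed in the moderated F test at adjusted p under 0.05, where 0% of all 18377 genes did, and 0 had an unadjusted p under 0.05, with 0 by Kruskal-Wallis permutation. The largest difference between medium means was for ABCC3, with 6.92 ± 1.41 log2 (SD, 10 lines) in DMEM, 6.76 ± 1.02 (7 lines) in DMEM/F12 and 6.02 ± 0.42 (9 lines) in RPMI. The difference of 0.90 was no larger than the spread between lines within DMEM or DMEM/F12 (Kruskal-Wallis permutation p = 0.346).

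The EMT score orders the lines from epithelial (PEO1, -0.819) to mesenchymal (TOV112D, 0.72), and it was rebuilt here from 184 epithelial and 200 mesenchymal signature genes, of which 0 are members. The arrays of FUOV1 (0.38 and -0.33), OV7 (0.52 and -0.12) and OAW42 (0.18 and -0.15) had scores of opposite sign. So did those of HEYC2 (-0.21 and 0.70) and OV56 (0.12 and -0.30), which hold arrays apart. The scores of these lines are means of unlike arrays. No member passed at adjusted p under 0.05 in the permutation test of Spearman's rho over 28 lines. Across all genes, 0.702% fell and 0.158% rose with the score at this threshold. Of the members, 5 had an unadjusted p under 0.05, and the share of all genes at that threshold was not counted. A positive rho was found in 22 members and a negative one in 20. The median was 0.0216 for members, against 0.012 for all genes.

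Only ABCF3 had a rho below -0.5 (2.07% of all genes did), and 0 members had a rho above 0.5 (1.03% of all genes did). ABCF3, a translation factor, gave rho = -0.532 ± 0.139 (jackknife SE, permutation p = 0.00414, adjusted p = 0.186, n = 28), Pearson's r = -0.469 (permutation p = 0.0117) and r = -0.421 when PEO1 and TOV112D, at the ends of the score, were left out. Over the DMEM lines its rho was -0.527, over the RPMI lines -0.55 and over the DMEM/F12 lines -0.429. Without the arrays apart rho was -0.435.

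ABCC4 gave the highest value, rho = 0.499 ± 0.134 (permutation p = 0.0074, adjusted p = 0.235), r = 0.518 (permutation p = 0.00475) and r = 0.465 without these lines at the ends. Within media its rho was 0.442, 0.65 and 0.5 for DMEM, RPMI and DMEM/F12. It was 0.428 without the arrays apart, and 0.38 to 0.546 with each array left out in turn. ABCC3 gave -0.418 (adjusted p = 0.404), and ABCB1 -0.0203, with a sign that changed under several settings. Drug efflux pumps thus lay on both sides of 0 along the score.

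**Figure D4:**
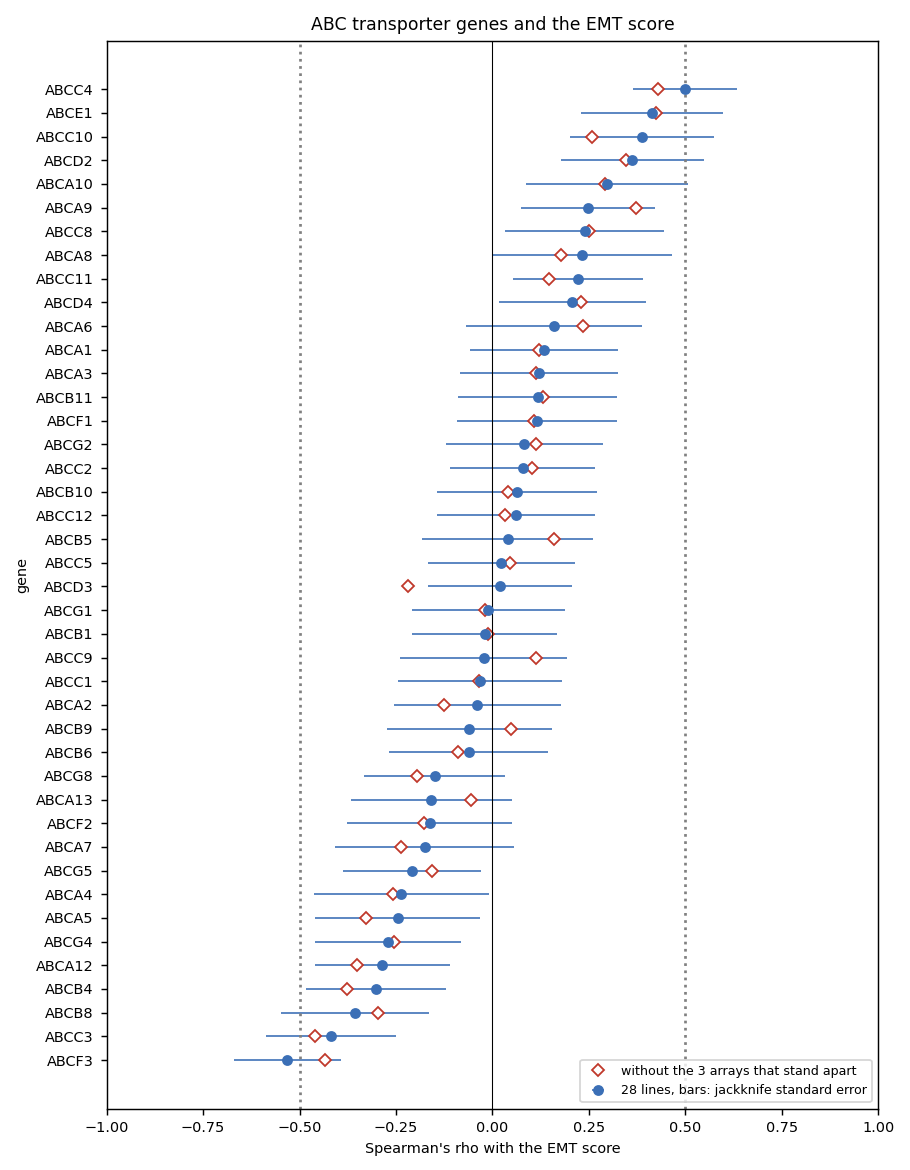
Spearman's rho of each of the 42 members (y axis) with the rebuilt EMT score over 28 lines (x axis), with jackknife standard errors (filled circles and bars) and without the 3 arrays that stand apart (open diamonds); dotted lines mark 0.5 in size. ABCC4 sits at 0.499 and ABCF3 at -0.532, and most members lie near 0.

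Correlations between members were counted over 861 pairs. The median rho across 28 lines was 0.0728, and 33 pairs were above 0.5 and 6 below -0.5. Without the arrays apart 12 and 2 were. The share over all gene pairs was not computed, so these counts cannot be called few or many for this array. These correlations are descriptions with no test, and the points share their arrays and normalisation. ABCB8 and ABCF2, whose genes lie 163701 bases apart on chromosome 7, had the highest, 0.678, and 0.846 without the arrays apart. ABCC5 and ABCF3, 168314 bases apart on chromosome 3, gave 0.539 and 0.516. Of the other neighbouring pairs, ABCC11 and ABCC12 on chromosome 16, 8825 bases apart, gave 0.652 (0.555 without the arrays apart), and ABCA6 and ABCA10 on chromosome 17, 6111 bases apart, gave 0.557 (0.47). All 4 of these genes lay below the filter on low values. ABCB1 and ABCB4 gave 0.299 and ABCG5 and ABCG8 0.204.

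ABCB1 and ABCC2 gave 0.623, and 0.638 without the arrays apart, and both promoters are printed above. OVCA420 and OVCAR2 were called high for both genes. UWB1.289 was called low for both (differences of -1.13 for ABCB1, adjusted p = 0.0189, and -1.05 for ABCC2, adjusted p = 0.0106). Both calls were lost when either UWB1.289 array was left out. Its levels of 4.39 and 4.44 lay near the low end of the scale. The median lines were at 4.88 and 5.24, below the means of the other lines, 5.53 and 5.49. DOV13 and OAW42 had high ABCB1 with ABCC2 at 5.79 and 5.40. ABCC4 and ABCA1 gave 0.614 and 0.592, and both were called high in OVCAR2, DOV13 and OV7 and low in CAOV3. ABCB1 and ABCA12 gave 0.57 and 0.545.

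**Figure D5:**
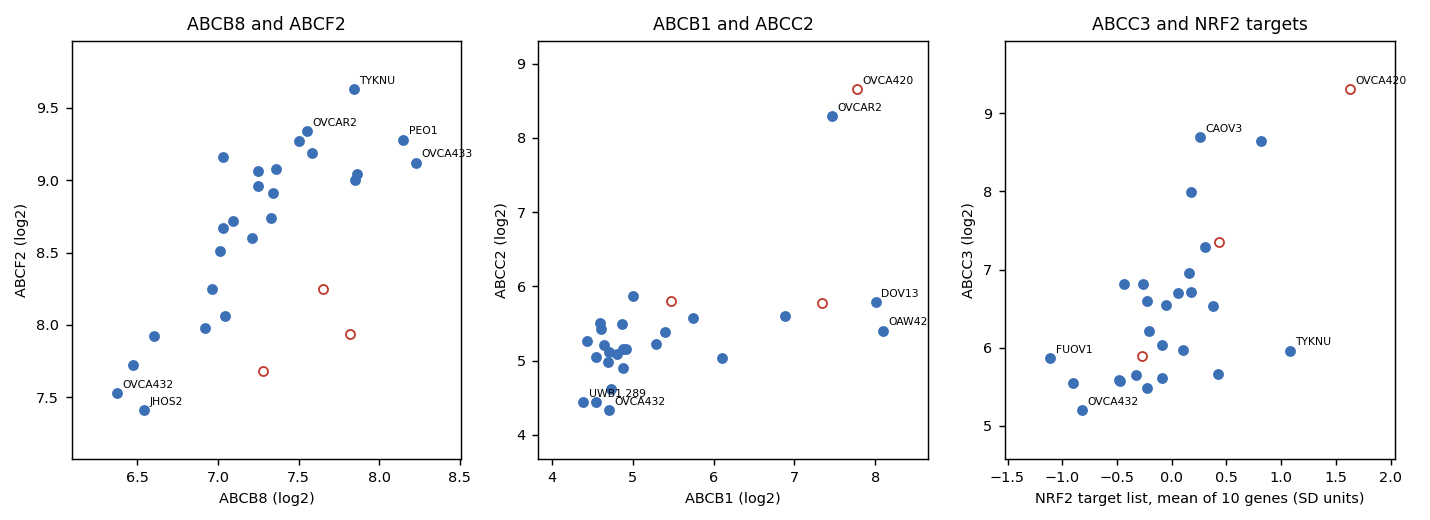
Line means of ABCB8 and ABCF2 (left), ABCB1 and ABCC2 (middle), and of ABCC3 against the mean of 10 NRF2 target genes in standard deviation units (right), in log2 units over 28 lines; open red circles are the lines with an array that stands apart. The ABCB8 and ABCF2 points rise together (rho 0.678), ABCB1 and ABCC2 share OVCA420 and OVCAR2 at the top, and ABCC3 rises with the list (rho 0.652).

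NRF2 (NFE2L2) drives antioxidant genes and is known to act on several ABCC genes. The mean of 10 of its target genes outside the family gave a rho of 0.652 with ABCC3 (0.539 without the arrays apart) and of 0.522 with ABCG2 (0.554). It gave 0.323 with ABCC2 (0.429), 0.282 with ABCC4 (0.496), 0.271 with ABCB1 (0.382), 0.149 with ABCC1 (0.136), 0.0208 with ABCC10 (-0.121) and -0.29 with ABCC5 (-0.235). All 10 measured targets were called between lines and wide (9 without the arrays apart), among them NQO1, GCLM, AKR1B10, SLC7A11 and HMOX1. Of all genes, 65.7% were called and 36.1% were wide. AKR1B10, an aldo-keto reductase, was highest in OVCA420 at 9.74 and second in COLO720E at 7.93.

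LXR activates ABCA1 and ABCG1 in many cells. The mean of 8 cholesterol handling genes outside the family gave rho of 0.0296 with ABCA1 and 0.172 with ABCG1 (0.397 without the arrays apart), and -0.476 with ABCG8. All 8 were called and 6 were wide (MYLIP, LPCAT3, SCD, APOA1, NPC1 and NPC2), where 65.7% and 36.1% of all genes were. APOA1, the acceptor of cholesterol from ABCA1, was 9.83 in OV17R against a median of 6.61.

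Other transporters and regulators gave their own patterns. TAP1, TAP2 and CFTR, family members under other names, were all called and wide, where 65.7% and 36.1% of all genes were. TAP1 was 10.61 and TAP2 9.32 in A2780, the highest line for both, and CFTR was 6.86 in JHOS4. Of the 6 measured platinum and drug handling genes, all were called and 5 wide (SLC31A1, ATP7A, ATP7B, MVP and SLC47A1), against the same shares of all genes. Of 14 measured receptors and factors that control ABC genes, 11 were called and 4 were wide, namely AHR, NFE2L2, PPARG and HIF1A, counts near the 65.7% and 36.1% of all genes. AHR, the dioxin receptor, ran from 3.70 in UWB1.289 to 10.57 in OV7 and 10.36 in OVCAR2, and PPARG, a lipid-sensing receptor, was highest in OVCAR2 at 8.49.

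The genes most alike to 5 transporters were ranked over all genes by rho across the 28 lines, as a description. For ABCB1 they were STPG2 (0.725), FCGBP (0.695), ANXA13 (0.691), SPINK6 (0.672) and ARHGAP6 (0.665). For ABCG2 they were SLC20A1 (0.765), ELL2 (0.76), PHLDA1 (0.754), LPAR6 (0.745) and MIRLET7I (0.744). For ABCC2 they were CCDC198 (0.798), CYP2B6 (0.738), PLXNA2 (0.706), APLN (0.704) and HSP90AB5P (0.7). For ABCC3 they were PNPLA6 (0.804), CIB1 (0.797), SFN (0.788), SQOR (0.746) and ITPR3 (0.744). For ABCA1 they were HAS2 (0.692), ARHGEF6 (0.631), STAT6 (0.622), FUT8 (0.614) and ABCC4 (0.614). The highest values of so many comparisons are large by selection.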

How the data were processed

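RNA levels of 28 ovarian cancer cell lines were measured on 2 arrays each. The deposited values are log2 expression values that the authors made by RMA (background correction, normalisation and probe summary; affy 1.42.3 per the submitters' processing notes). Normalisation batches, and separate cultures for the replicates of a line, are not given in the sources used here, so p-values measure only differences between arrays that may be technical. RMA pulls low values together and has no detection call, and levels of different genes were not compared. The arrays give no read depth, and their number limits the precision.

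Groups were taken from the sample titles. One array of JHOS4 carries a misspelt line name and its replicate numbers disagree between labels; it was kept in JHOS4. Of 28869 probe sets, 19310 were annotated to one gene, giving 18377 genes, each represented by its brightest probe set on average (2 members had several; the ABCF1 probe sets held the same values). The filter on low values was used only as an alternative.

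limma 3.58.1 in R 4.3.3 fitted a mean per line (trend and robust eBayes) and contrasted each line with the mean of the other 27. A call needed adjusted p under 0.05, and a difference of 1 or 2 log2 units for lines or a range of 2 for wide genes. Media were compared on means of 26 lines. Spearman's rho used 100000 permutations (two-sided, Python 3.11.15, scipy 1.17.1). Scripts were tested on simulated data. The members and gene lists were chosen with earlier results of these data known. Genes were named if they were efflux pumps, wide, at least 2 log2 units from the other lines, past the EMT or medium thresholds, or most alike to 5 transporters; others are given by counts. Alternatives covered other probe set, normalisation and filter choices, the 3 arrays apart, merged HEY lines, a replicate block, other scores, and each array left out.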

Additional observations from a re-analysis of the deposited data

Results flagged for a closer look

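Line means were compared within each base medium, and a line was noted where its gap to the nearest line was large for the range of its medium (Dixon's ratio). Of 126 groups of lines, 25 gave such a line, in 18 genes, with 23 on the high side and 2 on the low side. The threshold passes about 1 in 20 groups of normally distributed values. The share over all genes was not computed, so the count cannot be read as particular to the members. OVCA420 accounts for 11 of the 25, OV56 for 3 and HEYC2 for 1, and these lines hold the arrays that stand apart. The ratios were not computed without those arrays, and values of single arrays are given below.

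Among the DMEM lines, OVCA420 stood out for ABCC2 (8.66, next line 5.87), ABCC11 (5.66), ABCA8 (4.22), ABCA9 (4.30), ABCA12 (6.23, next 4.90), ABCG4 (6.49), ABCG5 (5.11), ABCG8 (6.03), ABCC9 (4.11) and ABCC12 (4.68) on the high side and for ABCE1 (8.05) on the low side. In these genes the arrays of OVCA420 differ, and replicate 1 is the one apart. On the high side only ABCC2 (7.23 and 10.09) and ABCA12 (4.86 and 7.60) were higher in replicate 2. In the other genes on that side replicate 1 held the higher value, as in ABCA8 (4.98 and 3.47), ABCA9 (4.88 and 3.73) and ABCG8 (6.51 and 5.55). The low value of ABCE1 also came from replicate 1 (5.80 and 10.29). DOV13 stood out for ABCA13 (5.51) and ABCB4 (4.71), and OAW28 for ABCD4 (8.55).

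Among the RPMI lines, OVCAR2 stood out for ABCB1 (7.47, next line 5.75), ABCC2 (8.29, next 5.80) and ABCB4 (5.65), with ABCC2 arrays of 8.29 and 8.30. HEYC2 stood out for ABCA6 (3.63), EFO21 for ABCA13 (5.49), OVCAR3 for ABCD4 (8.26) and COLO720E for ABCC8 (6.20). Among the DMEM/F12 lines, OV17R stood out for ABCA9 (6.05, next line 3.90), and OV56 for ABCA12 (5.88), ABCC9 (3.93) and, on the low side, ABCF3 (7.91). The OV56 arrays, of which replicate 2 is apart, read 6.80 and 4.96 for ABCA12, 3.68 and 4.17 for ABCC9, and 8.04 and 7.78 for ABCF3. For ABCA6 the HEYC2 arrays, of which replicate 1 is apart, read 3.86 and 3.40.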

How the results depend on the processing

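With all line and gene pairs counted whatever their size, 143 were called higher and 121 lower instead of 49 and 30. The count of members with a rho of 0.5 in size with the EMT score was 1, and it became 2 with quantile normalisation, 2 with HEY and HEYC2 merged, 2 with expression and score centred on the base medium, 0 without the arrays apart, 0 without PEO1 and TOV112D, and 9, 8 and 9 within DMEM, RPMI and DMEM/F12, where few lines remain. The rho of ABCB1 changed sign, to 0.05 without PEO1 and TOV112D, 0.02 when centred on the medium and 0.00 to 0.01 with some arrays left out. Leaving out each array in turn gave 31 to 39 called members, 16 to 19 wide, 47 to 58 higher and 27 to 38 lower calls, 11 to 15 higher and 1 to 5 lower calls of at least 2 log2 units, 0 called with the EMT score, 1 to 2 with a rho of 0.5 in size, and 0 between media. The 5 lower calls came without OVCA420 replicate 2, and 3 and 2 came without HEYC2 replicate 2 and OV56 replicate 1. Of 39 named gene results, 3 lost their call: ABCC10 (adjusted p = 0.124) and ABCA12 (0.278) with quantile normalisation, and ABCD3 with quantile normalisation (0.0552), merged HEY lines (0.181), and 51 of 56 arrays left out (up to 0.0885). The causes were not tested. Correlations of array differences between lines had a median of -0.000247 over 378 line pairs. They ran from -0.887 to 0.871, with 91 pairs over 0.1. Such a median cannot show that replicate numbers were unpaired or that arrays shared no batch. A replicate block lost ABCD3 (adjusted p = 0.0505) and gave 31 called members and 17 wide ones. The member pair and list correlations without the arrays apart were chosen after seeing the data.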
